A study of Mus musculus with 3 samples.

Results

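A group of 10 genes that respond to antigen receptor signals was followed across wild-type, Dll1-/- and Rbpj-/- helper T cells. They are the nuclear receptor genes Nr4a1, Nr4a2 and Nr4a3, the zinc finger genes Egr1, Egr2 and Egr3, the surface activation marker Cd69, the transcription factor genes Nfatc1 and Nfatc2, and Rcan1. The genes were chosen by name, with earlier results of these data known. Their probes were found through the RefSeq accession that the array files give for each probe, and 13 probes named all 10 of them, out of 20886 genes named on the array. Nr4a2, Nfatc1 and Nfatc2 have 2 probes each and the other 7 genes have 1.

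RNA came from CD4+ T cells 2 days after stimulation, taken from female C57BL/6 mice aged 8 weeks, and was hybridised to 1-colour oligonucleotide arrays. The 3 groups were wild type (WT), Dll1-/- (here Dll1 KO) and Rbpj-/- (here Rbpj KO), with 1 array each. Dll1 (Delta-like 1) is a Notch ligand displayed on the cell surface, and Rbpj is the DNA-binding partner of activated Notch. The sources used here do not state which cells carried each deletion, what the stimulus was or whether animals were pooled. Because a group is 1 array, differences lack any replicate check, no p-value is given, and each comparison is between these arrays, not between genotypes.

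A T cell receptor that meets its ligand raises calcium and activates the MAP kinase cascade. Calcium activates the phosphatase calcineurin, which lets NFAT proteins enter the nucleus, while the MAP kinase arm acts through serum response factor and its partners on the Egr genes. Nr4a and Egr genes are switched on within hours and decay when the signal ends, and for this reason Nr4a1 and Nr4a3 reporter mice are used to read how strongly and how recently a T cell was stimulated. Rcan1 is a calcineurin inhibitor that is itself induced by NFAT, and the product of Cd69 keeps activated T cells in lymphoid tissue by removing the S1P receptor from the surface.

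Short motifs known to bind factors of these pathways lie before some of the genes' start sites, and the sequences are printed because the Nr4a genes stood higher together on the Dll1 KO array. A match is a description of the letters only. RefSeq promoter windows (GRCm38.p6) matched 6 of the 10 genes, namely Nr4a1, Nr4a2, Nr4a3, Egr2, Nfatc2 and Rcan1. Cd69, Egr1, Egr3 and Nfatc1 had no entry. In the 250 bases before the start, on both strands, Nr4a1, Nr4a2 and Nr4a3 each held 4 copies of TGACG, the half-site of the cyclic AMP response element bound by CREB family factors. Windows of Egr2 and Rcan1 held up to 2 copies, a number reached by 3.9% of all windows, and those of Nfatc2 held 0. In the first 3 sequences below, capitals mark TGACG or its reverse complement. They are the windows of Nr4a1 (chr15:101266596-101266845, plus strand) and Nr4a2 (chr2:57124004-57124253, minus strand) and the first 50 bases of that of Nr4a3 (chr4:48045055-48045104, plus strand), which hold 3 of its 4 half-sites.
Nr4a1: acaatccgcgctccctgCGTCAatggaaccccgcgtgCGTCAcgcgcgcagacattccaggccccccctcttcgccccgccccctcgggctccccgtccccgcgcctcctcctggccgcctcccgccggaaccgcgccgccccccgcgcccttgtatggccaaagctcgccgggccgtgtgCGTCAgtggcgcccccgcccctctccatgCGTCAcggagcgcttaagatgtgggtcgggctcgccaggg
Nr4a2: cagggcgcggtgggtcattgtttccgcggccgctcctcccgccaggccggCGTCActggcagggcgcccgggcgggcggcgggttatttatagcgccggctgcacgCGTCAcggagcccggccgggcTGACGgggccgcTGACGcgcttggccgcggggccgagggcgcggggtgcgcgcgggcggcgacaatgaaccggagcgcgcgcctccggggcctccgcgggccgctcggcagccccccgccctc
Nr4a3: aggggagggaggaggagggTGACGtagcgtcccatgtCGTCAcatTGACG

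Of 32851 windows of this length, 17.8% held at least 1 half-site and 0.137% held at least 4, so the 3 receptor genes lie among 44 genes of 27025 with a window that dense. Of those 44 genes, 35 were measured in both WT and the Dll1 KO, and 20 of them (57.1%) were higher in the Dll1 KO with a median log2 difference of 0.03. Among the 6658 measured genes with no half-site in any window, 43.7% were higher and the median was -0.03. Only 1 of the 35 was at least 1.5-fold higher, which was Nr4a3. On the Rbpj KO array 9 of 34 measured genes with that many half-sites (26.5%) stood above WT, with a median of -0.07, beside 40.4% and -0.07 for genes with none. Set against the Dll1 KO, 8 of 34 (23.5%) stood higher in the Rbpj KO, beside 45.6%, with medians of -0.12 and -0.03. The 3 receptor genes are themselves among these genes, and the comparisons share arrays. The motif was counted because those 3 genes stood higher on the Dll1 KO array, so these counts are no separate support for that difference. A link between the motif and the levels was not tested.

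The other sequences shown are a CArG box, the element bound by serum response factor, before Egr2 and NFAT core motifs (GGAAA) before Rcan1. The 30 bases around the Egr2 box lie at chr10:67537484-67537513 on the plus strand, and the box begins 72 bases before 1 of the gene's annotated starts. A CArG box is present in 1.47% of all windows and in 4 of the 5 windows of Egr2, which overlap and hold 2 distinct boxes. The Rcan1 window, at chr16:92400079-92400328 on the minus strand, is the more downstream of its 2 windows and holds 3 copies of GGAAA, a number reached by 6.39% of windows. Its other window held 0. Nfatc2 held 3 copies before 1 of its starts and 1 before the other, and the Egr site GCGNGGGCG, present in 4.7% of windows, occurred once each before Nr4a1 and Nr4a2. GGAAA can overlap a CArG box, as it does in the Egr2 stretch. Capitals mark the CArG box for Egr2 and GGAAA or its reverse complement for Rcan1.
Egr2: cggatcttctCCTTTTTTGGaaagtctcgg
Rcan1: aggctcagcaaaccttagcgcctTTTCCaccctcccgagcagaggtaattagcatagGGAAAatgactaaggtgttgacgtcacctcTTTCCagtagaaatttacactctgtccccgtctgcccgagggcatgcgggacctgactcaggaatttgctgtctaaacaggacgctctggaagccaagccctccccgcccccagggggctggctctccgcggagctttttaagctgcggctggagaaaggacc

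Each level is a log2 processed signal from which the 75th percentile of that array was subtracted, so a level of 0 is a signal equal to the percentile. Levels of different probes are not compared, since each probe binds with its own strength. In bulk RNA, fewer cells that express a gene and less RNA per cell cannot be told apart. The defining T cell genes Cd3e, Cd3d and Cd3g, and Cd4 itself, were well above background on all 3 arrays, with 7 of 7 T cell probes measured and a summed linear level of 601 on the WT, 579 on the Dll1 KO and 655 on the Rbpj KO array, in units of the 75th percentile.

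Spot error was read from 399 probes printed at least 10 times on each array, and their median spot SD was 0.06 log2 on the WT, 0.06 on the Dll1 KO and 0.07 on the Rbpj KO array. The share of probes well above background was 46.6%, 50.1% and 47.3% in that order. Spot error says nothing of the spread between mice. Of the deleted genes, Dll1 was not well above background on the WT array nor on either knockout array. Rbpj was measured by 2 probes, at -0.35 and -0.66 log2 in the Rbpj KO relative to WT and 0.33 and 0.24 in the Dll1 KO. The position of these probes relative to the deleted sequence is unknown here, so they check no label.

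The members were chosen with earlier results of these data known, so their counts beside all genes are a description and not a test. Taking the mean over a gene's probes, all 9 measured members stood above WT in the Dll1 KO. Of the 9 members well above background on both arrays, 9 were higher, against 44.4% of all 11812 genes measured, and their median log2 difference was 0.41 beside -0.03 for all genes. Differences ran from 0.15 for Nfatc1 to 0.85 for Nr4a3. The median is the value of Nfatc2, whose 2 probes disagreed, at 0.90 in row 42 and -0.07 in row 235. Nfatc2 thus counts as higher only by the mean of its probes. Nr4a3 alone (1 of 9) was at least 1.5-fold higher, against 1.96% of genes higher and 4.21% apart either way, and 0 of 9 were 2-fold apart, against 1.13%. After normexp background correction with quantile normalization Nr4a3 was under 1.5-fold, at 0.57 log2, while Nr4a1 at 0.67 and Egr1 at 0.61 were over it. Under spike-in scaling 8 of 9 were higher, with a median of 0.24 beside -0.20 for all genes. In the Rbpj KO the members were spread around WT, with 3 of 9 higher and 6 lower, against 39.8% and 60.2% of 11579 genes. Their median was -0.16 beside -0.07 for all genes, 0 of 9 were 1.5-fold apart either way, against 11.8%, and 0 of 9 were 2-fold apart, against 3.53%. Spike-in scaling moved the median of all genes from -0.03 to -0.20 in the Dll1 KO and from -0.07 to -0.65 in the Rbpj KO, so positive differences smaller than those shifts, such as that of Nfatc1 in the Rbpj KO, change sign under it.

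**Figure D1:**
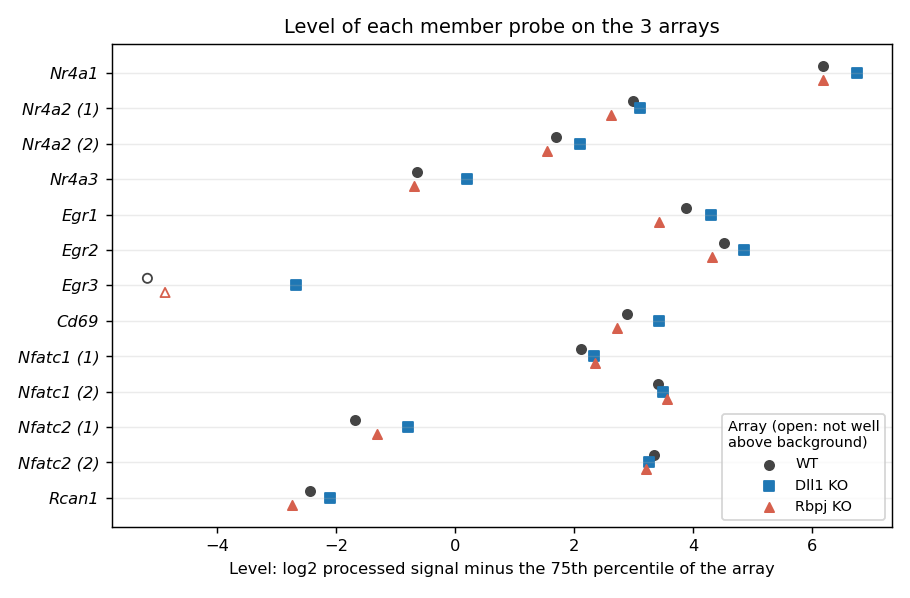
Level of each of the 13 member probes (rows) on the WT, Dll1 KO and Rbpj KO arrays, on a log2 scale relative to the 75th percentile of the array, with 1 array per group and open symbols for probes not well above background. The Dll1 KO array was highest for 9 of the 12 probes measured on all 3 arrays, and Egr3 was measured in the Dll1 KO only.

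Among the orphan nuclear receptors, Nr4a1 (Nur77), the receptor most used as a reporter of T cell receptor signals, had a level of 6.18 on the WT, 6.75 on the Dll1 KO and 6.19 on the Rbpj KO array. The Dll1 KO was highest and the other arrays lay close together. Its log2 difference from WT was 0.57 in the Dll1 KO (1.49-fold), a size reached in that direction by 2.09% of genes, and 0.01 in the Rbpj KO. Nr4a1 is 1 spot in row 36, and Feature Extraction marked it as neither saturated nor an outlier on any array.

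Nr4a3 (Nor1), which works with Nr4a1 in T cell tolerance and regulatory T cells, had a level of -0.65 on the WT, 0.20 on the Dll1 KO and -0.70 on the Rbpj KO array. Its log2 difference from WT was 0.85 in the Dll1 KO (1.80-fold), reached by 0.593% of genes, and -0.05 in the Rbpj KO. It is the only member whose probe was printed 10 times, in rows 30 to 355, which allows its error within an array to be read directly. The WT spots ran from -0.77 to -0.54 (SD 0.09, n = 10 spots), the Dll1 KO spots from 0.11 to 0.29 (SD 0.05, n = 9 spots, with 1 left out as an outlier) and the Rbpj KO spots from -0.91 to -0.50 (SD 0.13, n = 10 spots). Every Dll1 KO spot lay above every spot of the other arrays, whose ranges overlap each other. The mean difference between the Dll1 KO and WT was 0.84 over the 5 spot pairs above the array's middle row and 0.84 over the 4 below it. These spots are repeats of 1 hybridisation, not of animals.

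**Figure D2:**
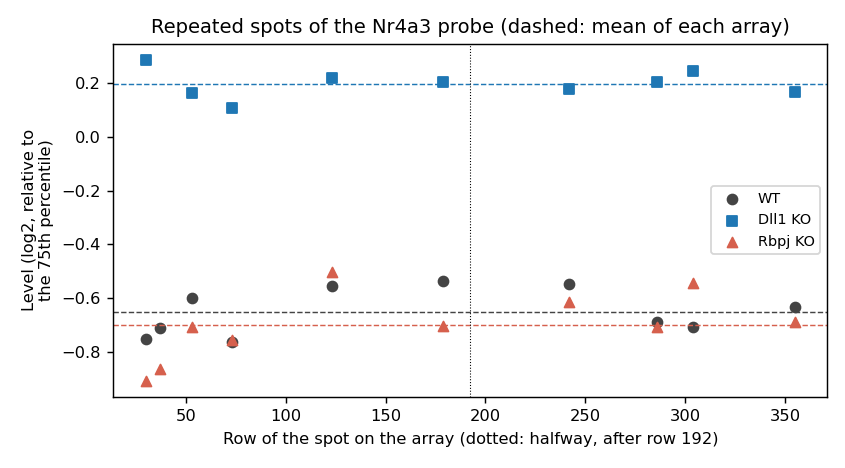
Level of each repeated spot of the Nr4a3 probe (vertical axis, log2 relative to the array's 75th percentile) against its row on the array, for WT (circles), the Dll1 KO (squares) and the Rbpj KO (triangles), with dashed lines at each array's mean. The 9 Dll1 KO spots lie between 0.11 and 0.29, while WT and Rbpj KO spots lie between -0.91 and -0.50.

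Nr4a2 (Nurr1), the third receptor of the family, was read by 2 probes. The probe in row 186 had a level of 1.70 on the WT, 2.10 on the Dll1 KO and 1.55 on the Rbpj KO array, and the one in row 371 had 2.98, 3.11 and 2.62. Both probes gave the same order of arrays, with the Dll1 KO highest and the Rbpj KO lowest. Against WT the Dll1 KO was higher by 0.40 and 0.13 on the log2 scale, and the Rbpj KO stood at -0.15 and -0.36. Repeated probes at such levels had a 95th percentile of spot SD of 0.11 and 0.09 for the Dll1 KO difference, so the smaller of these differences is close to spot error.

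Among the Egr factors, Egr1, an early response gene of the MAP kinase arm, had a level of 3.87 on the WT, 4.29 on the Dll1 KO and 3.43 on the Rbpj KO array. WT lay between the knockouts, with a log2 difference of 0.42 for the Dll1 KO and -0.44 for the Rbpj KO. The first size was reached by 4.75% of genes in its direction and the second by 11.4%. Between the knockouts Egr1 was 1.82-fold lower in the Rbpj KO.

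Egr2, which with Egr3 restrains T cell activation and is linked to anergy, had a level of 4.52 on the WT, 4.86 on the Dll1 KO and 4.32 on the Rbpj KO array. The order of arrays was that of Egr1 with smaller steps, at 0.34 for the Dll1 KO and -0.20 for the Rbpj KO against WT. Egr3 was well above background in the Dll1 KO alone, with a processed signal of 24.4 there, 4.91 in WT and 4.80 in the Rbpj KO. Set against the lowest signals well above background on the dim arrays, 19.2 in WT and 15.8 in the Rbpj KO, the level of Egr3 was at least 1.45-fold higher in the Dll1 KO than in WT and at least 1.40-fold higher than in the Rbpj KO. It rests on 1 spot, in the last row of the array, and on a signal close to the detection limit.

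Cd69, the early activation marker, had a level of 2.88 on the WT, 3.42 on the Dll1 KO and 2.72 on the Rbpj KO array. Its difference of 0.54 log2 between the Dll1 KO and WT compares with a 95th percentile of 0.09 for the spot SD of 54 repeated probes at that level, and was reached by 2.57% of genes. The Rbpj KO stood at -0.16 against WT.

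Of the NFAT genes, Nfatc1, whose short isoform is induced by NFAT itself, had a level of 2.11 on the WT, 2.34 on the Dll1 KO and 2.35 on the Rbpj KO array by 1 probe, and of 3.42, 3.49 and 3.56 by the other. It was the only member for which the Rbpj KO stood highest by every probe. The knockouts were 0.009 and 0.071 log2 apart, below the 95th percentile of spot SD of 0.085 and 0.074 at these levels, so their order is within spot error. Against WT the mean difference was 0.15 for the Dll1 KO and 0.19 for the Rbpj KO, and the 2 probes, which carry the accessions of different transcripts, gave differences of the same sign.

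Nfatc2, the NFAT already present in resting T cells, was read by probes that disagreed. The probe in row 235 had a level of 3.34 on the WT, 3.26 on the Dll1 KO and 3.21 on the Rbpj KO array, so the differences from WT were -0.07 and -0.13. The probe in row 42, designed to another transcript accession, had a level of -1.69 on the WT, -0.79 on the Dll1 KO and -1.32 on the Rbpj KO array. By that probe the Dll1 KO was 1.86-fold above WT, where repeated probes at that level had a 95th percentile of spot SD of 0.28 log2. The gene's mean difference of 0.41 therefore rests on the row 42 probe, and was 0.20 after normexp with quantile normalization.

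Rcan1, the calcineurin inhibitor used as a readout of NFAT activity, was dim, with a level of -2.44 on the WT, -2.10 on the Dll1 KO and -2.75 on the Rbpj KO array. The arrays came in the order of Egr1 and Egr2, at 0.34 and -0.31 from WT. Repeated probes at this level had a 95th percentile of spot SD of 0.39 and 0.42 log2, so both differences are below that measure of spot error.

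**Figure D3:**
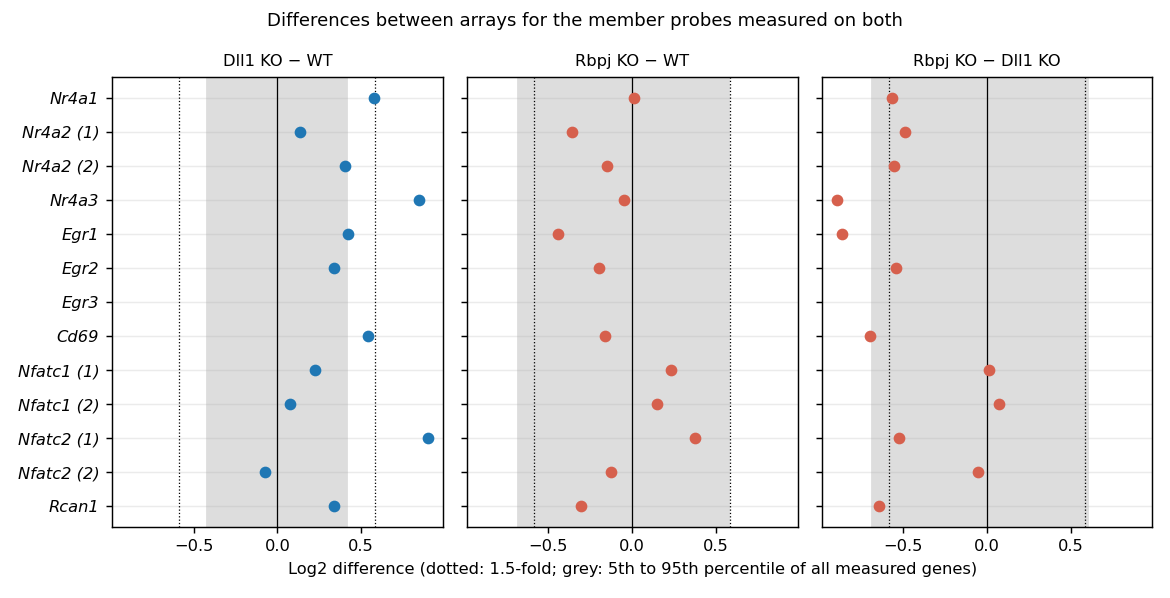
Log2 difference between 2 arrays (horizontal axis) for each member probe well above background on both, in 3 panels, with the 5th to 95th percentile of all measured genes in grey and 1.5-fold as dotted lines. In the Dll1 KO against WT the points run from -0.07 to 0.90, and in the Rbpj KO against WT all lie inside the grey band.

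Set directly against the Dll1 KO, the Rbpj KO array was lower for most members. Of 9 measured members 8 were lower and 1 was higher, against 55.1% and 44.9% of 11798 genes, with a median of -0.56 beside -0.03 for all genes. At least 1.5-fold lower were 4 of 9, against 6.35% of genes lower and 11.6% apart either way, namely Nr4a3 at -0.90, Egr1 at -0.86, Cd69 at -0.70 and Rcan1 at -0.64. At 2-fold the count was 0 of 9, against 4.16% of genes. Nr4a1 stood at -0.56, Egr2 at -0.54 and Nr4a2 at -0.52, while Nfatc1 stood at 0.04. After normexp with quantile normalization 2 of 9 were at least 1.5-fold lower, Nr4a3 at -0.59 and Egr1 at -0.83, while Cd69 stood at -0.53 and Rcan1 at -0.20. Under spike-in scaling 8 of 9 were. The comparisons share arrays, so this one is not separate evidence beside the comparisons with WT.

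Most member probes had the same order of arrays. Of the 12 member probes measured on all 3 arrays, 7 had the order Dll1 KO, WT, Rbpj KO from highest to lowest, against 20.1% of 14897 named probes. They belong to Nr4a2 (both probes), Nr4a3, Egr1, Egr2, Cd69 and Rcan1. The Dll1 KO was highest for 9 of 12 member probes, against 28.6% of all. The Rbpj KO was lowest for 8 of 12, against 47.3%. Where WT and the Rbpj KO lie close, as for Nr4a3 (0.05 apart), the order of these arrays is within spot error.

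Nr4a3 and Egr1 had the widest range over the arrays, 0.90 and 0.86 log2, among members measured on all of them. The genes with levels most like theirs, by Euclidean distance of the 3 levels centred on their mean among 11033 genes, were Hydin, Sprr4 and Pcdha8 for Nr4a3 (distances 0.05 to 0.10 log2) and Cdc7, Wdr89 and Golga7b for Egr1 (0.02 to 0.03 log2). Hydin and Pcdha8 average 2 probes, of which 1 was not well above background on every array, so of the 3 genes named for Nr4a3 only Sprr4 was measured by all its probes. With 3 arrays many genes can match a pattern this closely.

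Lists of related genes are described by their counts, beside the shares of all genes. Of 24 genes of calcium entry, calcineurin and NFAT 22 were measured. In the Dll1 KO 0 of them were at least 1.5-fold higher or lower than WT (all genes 4.21%). There 7 stood above and 15 below WT with a median of -0.08 (all genes 44.4% above and 55.6% below). In the Rbpj KO 11 stood above and 11 below WT (all genes 39.8% and 60.2%), with a median of -0.01 (-0.59 under spike-in scaling). Of these 22 genes 1 was at least 1.5-fold apart from WT there, and it was lower (all genes 11.8% either way). That gene was Ppp3cc, a catalytic subunit of calcineurin, with a level of 4.71 on the WT, 4.43 on the Dll1 KO and 3.72 on the Rbpj KO array. Its log2 difference from WT was -0.99 in the Rbpj KO and -0.74 after normexp with quantile normalization. Rcan3, a relative of Rcan1, had the next largest difference over all 3 comparisons, 0.55 for the Rbpj KO against the Dll1 KO, with a level of -0.49 on the WT, -0.76 on the Dll1 KO and -0.21 on the Rbpj KO array.

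Partners and upstream factors of the Egr and Nr4a proteins had a median difference of 0.12 in the Dll1 KO, with 9 of 12 measured genes above WT (all genes 44.4%) and 1 at least 1.5-fold higher (all genes 1.96%). That gene was Elk1, a partner of serum response factor, whose difference of 0.60 was 0.17 by the 1 of its 2 probes that both arrays measured. In the Rbpj KO the median was 0.11, with 7 of 12 above (all genes 39.8%) and 1 past 1.5-fold, lower (all genes 11.8% either way). Under spike-in scaling these medians were -0.05 and -0.47, so their direction depends on the scaling. Egr4, the fourth Egr gene, was the only one past 2-fold in any comparison, at -1.46 for the Rbpj KO against the Dll1 KO, which was under 2-fold at -0.82 after normexp with quantile normalization. Its level was -0.87 on the WT, -0.33 on the Dll1 KO and -1.79 on the Rbpj KO array, the order seen for Egr1 and Egr2. Its log2 difference was 0.54 for the Dll1 KO and -0.92 for the Rbpj KO against WT, or 0.34 and -0.47 after that correction. Nab2, a corepressor that Egr proteins induce and then bind, stood at 0.46 for the Dll1 KO and 0.07 for the Rbpj KO. It was named after its values were seen.

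Genes known to depend on NFAT, Egr or Nr4a factors in T cells were found on both sides of WT. Of 24 genes measured for the Dll1 KO, 18 were above WT (all genes 44.4%) with a median of 0.14 (-0.03 under spike-in scaling), and 1 was at least 1.5-fold higher (all genes 1.96%). In the Rbpj KO 13 of 23 were above and 10 below WT (all genes 39.8% and 60.2%) with a median of 0.06 (-0.52 under spike-in scaling), and 11 of them were past 1.5-fold, 7 above WT and 4 below (all genes 11.8% either way). At least 2-fold apart from WT in the Rbpj KO were 3 genes above and 3 below (all genes 3.53% either way). Foxp3 at 1.25 and Socs1 at -1.21 were among them, beside the 4 genes described next. Il2, the classic NFAT target, had a level of 1.45 on the WT, 1.87 on the Dll1 KO and 0.26 on the Rbpj KO array, the order of the reporters. Cdkn1a, a cell cycle inhibitor, followed it with -1.06, -0.76 and -2.26, but 1 of its 2 probes was not well above background throughout, and by the other its Rbpj KO difference from WT was -0.66 in place of -1.20. Ikzf2, which encodes Helios, had 0.50, 0.85 and 2.09, and the inhibitory receptor gene Tigit -2.24, -1.34 and -0.73. For these genes the Rbpj KO was the highest array, while the Dll1 KO stood above WT as for the reporters. Tigit was the gene at least 1.5-fold higher in the Dll1 KO, at 0.90, which was 0.29 after normexp with quantile normalization. After normexp with quantile normalization the Rbpj KO difference from WT was -0.91 for Il2, -0.40 for Cdkn1a, 1.40 for Ikzf2 and 0.66 for Tigit.

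Of the 7 genes of S1P signalling and homing that act with Cd69, 6 were below WT in each knockout, against 55.6% of all genes for the Dll1 KO and 60.2% for the Rbpj KO. Their medians were -0.15 and -0.34, or -0.32 and -0.91 under spike-in scaling. Spns2, an S1P transporter, was past 2-fold between the knockouts at -1.26, but stood at -0.60 after normexp with quantile normalization, with a level of -1.33 on the WT, -1.06 on the Dll1 KO and -2.32 on the Rbpj KO array. S1pr1, the receptor that CD69 removes from the surface, had a log2 difference from WT of -0.15 for the Dll1 KO and 0.41 for the Rbpj KO. It was named after its values were seen.

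**Figure D4:**
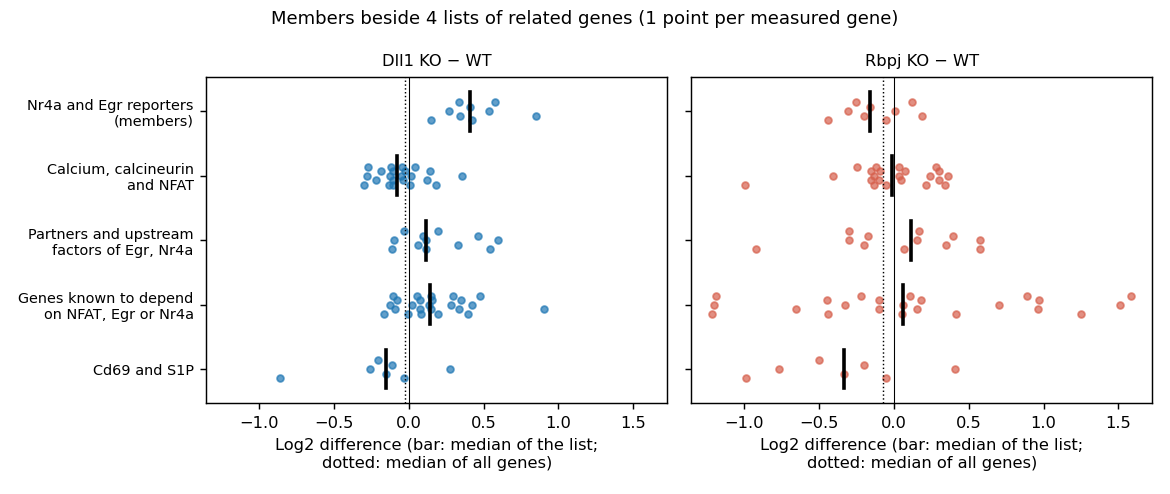
Log2 difference from WT (horizontal axis) of each measured member and of each measured gene in 4 lists of related genes, for the Dll1 KO (left) and the Rbpj KO (right), with bars at the list medians and a dotted line at the median of all genes. The members' median in the Dll1 KO is 0.41 and those of the 4 lists lie between -0.15 and 0.14.

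Markers of other cells differed between the arrays too. NK cell markers, of which Ncr1 was dim throughout (not well above background on WT, Dll1 KO or Rbpj KO arrays), had a summed linear level of 1.04 on the WT, 1.97 on the Dll1 KO and 0.99 on the Rbpj KO array over 7 probes, and the 2 markers measured in both were higher in the Dll1 KO, Tyrobp by 1.11 and Klra8 by 0.71 log2. The Dll1 KO array, highest for most member probes, was thus also highest for Tyrobp, Klra8 and the NK cell sum. Klrb1c, dim in WT, went the other way between the knockouts and was 0.64 log2 higher in the Rbpj KO than in the Dll1 KO. B cell markers summed to 20.8, 20.6 and 14.2 over 4 probes, and the CD8 T cell markers to 1.82, 1.88 and 1.04 over 3, both sums lowest in the Rbpj KO. Of the B cell markers Cd79a, dim in WT, went the other way and was 1.13 log2 higher in the Rbpj KO than in the Dll1 KO. On the Rbpj KO array 2 of the 3 CD8 T cell probes were well above background. Macrophage and monocyte markers summed to 138, 105 and 216 over 9 probes, of which 1 probe for Itgam gave 94.7% to 97.3%. The other 8 summed to 5.03, 5.61 and 5.80, Adgre1 was dim throughout, Lyz2 was dim in WT and the Rbpj KO, and Cd68 had no named probe. Of the dendritic cell markers Itgax, Flt3 and Xcr1 were dim throughout, and the sum of 539, 597 and 613 over 6 probes comes almost wholly from the 1 measured probe, for Siglech. The part of these markers in the reporters' differences was not tested.

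The place of the spots on the array was also taken into account. With spots below the array's middle row alone, 6 of 7 measured members were higher than WT, with a median of 0.34 beside -0.03 for all genes there, and the exception was Nfatc2 at -0.07, read there by its row 235 probe. With the local median of nearby rows removed 9 of 9 were higher, with a median of 0.44 beside 0.00.

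**Figure D5:**
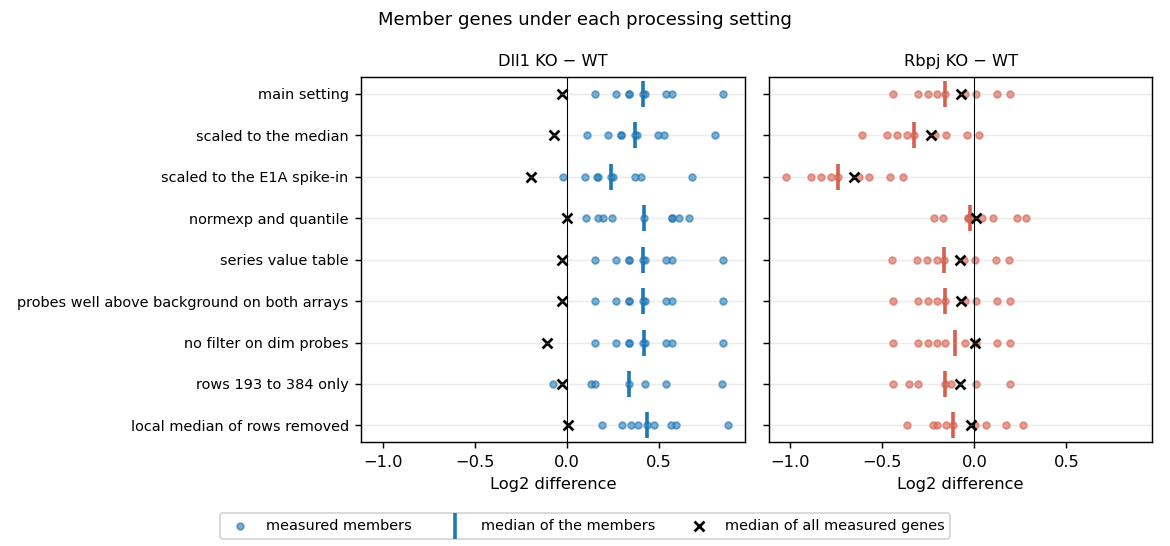
Log2 difference from WT (horizontal axis) of the members under the main setting and 8 alternatives (rows), for the Dll1 KO (left) and the Rbpj KO (right), with bars at the members' median and crosses at the median of all measured genes. The members' median in the Dll1 KO stays between 0.24 and 0.44 and above that of all genes, while in the Rbpj KO it runs from -0.74 to -0.02 along with that of all genes. Egr3 is not plotted and enters the median only without the filter on dim probes.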

How the data were processed

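The 3 arrays, of 1 Agilent mouse design, on 1 slide per the file headers, were hybridised with Cy3-labelled cRNA from 20 ng of RNA, per the labels. The authors deposited processed signals, a linear intensity from which background had been subtracted and a surface trend removed by Feature Extraction 10.7.1.1 per the file headers (10.7 per the submitters' processing notes). Values on a log2 scale make up the series table deposited by the authors, and 100% of its entries lay within 0.01 of the log2 processed signal minus 1 constant per array (7.47, 7.27 and 7.14), so the values show its scale and direction, with genes not centred. The medians of its columns were -3.44, -3.40 and -3.28.

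Outlier spots (143, 163 and 139) were left out and 0 were saturated. Spots of a probe were averaged on the log2 scale, and the 75th percentile over 55678 non-control probes was subtracted on each array. Accessions named 27507 probes through a GRCm38.p6 gene table, and 28171 were not used. The array design uses mm9, per the file headers, and probe coordinates were left out. Gene levels average the probes that passed the background filter on 1 or more arrays, and differences were counted where a probe was well above background on both. For a dim probe, the fold is taken against the lowest signal that passed the filter on that array (or the probe's own, if higher). It makes no allowance for spot error.

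The members and the gene lists were chosen with earlier results of these data known. From each list, genes at least 2-fold apart in any comparison were named, at most 4, or otherwise the 2 largest. Alternatives were median and E1A spike-in scaling, normexp (offset 50) with quantile normalization in limma 3.58.1, the series table, 2 other filters, spots below the middle row alone and, added after seeing the data, removal of the local median within 10 rows. Calculations used Python 3.11.15 and were tested on simulated data. The number of arrays limits the precision. Promoter windows came from RefSeq (GRCm38.p6).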

Additional observations from a re-analysis of the deposited data

How the results depend on the processing

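Members higher than WT in the Dll1 KO were 9 of 9 measured in the main setting. They were 8 of 9 under spike-in scaling, 6 of 7 in spots below the array's middle row and 10 of 10 with no filter on dim probes. Under the other alternatives they were 9 of 9. The member added without the filter is Egr3, which was not well above background on the WT or Rbpj KO array. Egr3 is also the 1 member at least 2-fold apart without the filter, in both comparisons that include the Dll1 KO. The other counts moved mainly with scaling. In the Rbpj KO against WT, members higher went from 3 to 1 with median scaling and to 0 with the spike-in, members at least 1.5-fold apart went from 0 to 1 and 6, and members at least 2-fold apart went from 0 to 1 under spike-in scaling. Between the knockouts, members higher went from 1 to 0 under both scalings, members at least 1.5-fold apart went from 4 to 7 under median scaling, 8 under spike-in scaling and 2 after normexp with quantile normalization, and members at least 2-fold apart went from 0 to 1 under median scaling, 4 under spike-in scaling and 1 with no filter on dim probes. In the Dll1 KO against WT, members at least 1.5-fold apart went from 1 to 2 after normexp, with no filter and with the local median removed, and 1 was at least 2-fold apart with no filter. Median scaling moved the median of all genes in the Rbpj KO from -0.07 to -0.24 and spike-in scaling moved it to -0.65, so differences there are read relative to it.

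Because the number of genes tested differs between settings, genes at least 2-fold apart are given as a percentage of them. In the Dll1 KO against WT it was 1.13%, and 0.0931% after normexp, 5.49% with no filter and 0.249% in spots below the array's middle row. In the Rbpj KO against WT it was 3.53%, and 12.8% under spike-in scaling, 0.959% after normexp and 8.39% with no filter. Between the knockouts it was 4.16%, and 6.79%, 1.64% and 9.27% in the same order. The cause of these changes was not tested. Of the single members' differences, 68 of 70 alternative values had the main sign in the Dll1 KO, 61 of 70 in the Rbpj KO (both against WT) and 68 of 70 for the knockouts against each other. Signal over background limits Egr3, Rcan1 and the dim Nfatc2 probe. No paired analysis was possible because each group has 1 array and the labels give no replicate numbers.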
